A study of Mus musculus with 6 samples.

Results

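The genes described here are 46 genes of replication licensing and S phase in mouse bone marrow-derived macrophages. They were chosen by symbol from a list fixed with earlier results of these data known, and all are present among the 24972 rows of the deposited table. They cover the origin recognition complex, the factors that load and activate the replicative helicase, the clamp and its loader, the replicative polymerases, RPA, Okazaki fragment enzymes, deoxynucleotide synthesis, and the regulators *Uhrf1* and *E2f1*. All 46 passed the filter on low values, 10 or more in 3 or more libraries, as did 12091 genes of the whole table. RNA of untreated macrophages was sequenced from Lcn10 knockout (Lcn10-KO) mice and from wild-type (WT) mice, with 3 libraries per genotype. *Lcn10* codes for a secreted lipocalin, a small carrier protein. Cells of both genotypes were grown out of bone marrow in medium with supernatant of L929 cells, a fibroblast line that secretes macrophage colony-stimulating factor, the growth factor that keeps such macrophages dividing. The labels give neither the knockout allele nor the strain, sex and age of the mice. They also leave out whether each library is a separate animal. Every p-value below therefore rests on how far these libraries differ, which could be technical variation.

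DNA is copied once per cell cycle because origins are licensed in G1 and fired in S phase. The origin recognition complex (ORC), Cdc6 and Cdt1 load rings of Mcm2 to Mcm7 onto DNA, and geminin (*Gmnn*) blocks Cdt1 once S phase has begun. Cdc45 and the GINS complex turn the loaded ring into the active helicase, after which polymerase alpha with primase starts each strand and polymerases delta and epsilon extend it on the clamp PCNA. Most of these genes are switched on at the border of G1 and S phase by E2F transcription factors, whereas genes of G2 phase and mitosis depend on CCAAT boxes and on an element named CHR that the DREAM and MuvB complexes bind.

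The values are normalized counts, read counts that the authors scaled between libraries, and their totals lay between 20476668 and 20636260. Going by what 1 read was worth, each library held about 18000000 to 24700000 reads. Values below are in the order of replicates 1 to 3. *Lcn10* was listed at 0 in all 6 libraries, so it cannot check the genotype labels. All 10 macrophage markers of the list were well above the filter, and their summed level was 315495 to 326948 in Lcn10-KO and 296351 to 305532 in WT. Of them *Mertk* and *Adgre1* rose (log2 fold changes 0.44 ± 0.058 and 0.26 ± 0.064, SE) while *Csf1r*, whose product binds macrophage colony-stimulating factor, and *Cd14* fell (−0.23 ± 0.047 and −0.17 ± 0.049), all past the threshold given below. *Csf1r* had 32723, 31104 and 30782 in Lcn10-KO, against 39204, 36591 and 35126 in WT, with groups that do not overlap, and its part in the results was not tested. Lymphoid and erythroid or mast cell markers were near 0, with sums of 32.7 to 43.4 in Lcn10-KO and 17.9 to 34.5 in WT for the 8 B, T and NK cell markers and of 11.4 to 16.9 in Lcn10-KO and 4.56 to 19.3 in WT for the 8 erythroid and mast cell markers. *Ncr1*, *Nkg7* and *Hbb-bs* were among those at 0 in all 6 libraries. The 13 granulocyte and progenitor markers summed to 511 to 549 in Lcn10-KO and 433 to 562 in WT, the 8 fibroblast markers to 3998 to 4485 in Lcn10-KO and 3039 to 4748 in WT and the 6 endothelial markers to 1451 to 1904 in Lcn10-KO and 1354 to 1542 in WT; the part of these cells in the results below was not tested. Of the endothelial markers *Vwf* rose, at 1158, 1283 and 1279 in Lcn10-KO, against 1118, 1071 and 1058 in WT (limma adjusted p = 0.0424).

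Of the 46 replication genes, 21 fell in Lcn10-KO macrophages, 0 rose and 25 did not pass. The threshold was a Benjamini-Hochberg adjusted p under 0.05 from limma over all 12091 genes tested, and no replication gene was higher at an unadjusted p under 0.05 either. Across all tested genes 9.84% were called, 5.14% lower and 4.7% higher. The median log2 fold change, Lcn10-KO minus WT, was −0.21 for the replication genes and −0.0011 for all tested genes. All 46 fold changes were below 0, as were 6077 of the 12091 tested genes, except that *Orc5* and *Gins4* lay just above 0 under quantile normalization and with some libraries left out. In 40 of the 46 genes the 3 Lcn10-KO values all lay below the 3 WT values, against 16.9% of all tested genes. The 6 whose groups overlap were *Gmnn*, *Gins2*, *Gins4*, *Orc5*, *Prim2* and *Rpa3*. The shifts were modest, with mean levels in Lcn10-KO between 77.0% and 99.5% of those in WT and a median of 85.9%. In these bulk samples fewer cells in S phase and less of each transcript per cell cannot be told apart.

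Library by library, the replication genes took 0.442%, 0.432% and 0.418% of all normalized counts in Lcn10-KO replicates 1 to 3, against 0.528%, 0.48% and 0.493% in WT replicates 1 to 3. The mean log2 value of the 46 genes, centred on the average of the 6 libraries, was −0.074, −0.10 and −0.14 in Lcn10-KO replicates 1 to 3, against 0.19, 0.038 and 0.087 in WT replicates 1 to 3. WT replicate 1 stood apart: it held the highest value of the 6 libraries in 37 of the 46 genes, and Lcn10-KO replicate 3 held the lowest in 31. Without WT replicate 1 the median log2 fold change was −0.16 and 19 genes were called lower. Variation within a genotype had a median SD of 0.056 log2 units in Lcn10-KO and of 0.083 in WT.

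**Figure D1:**
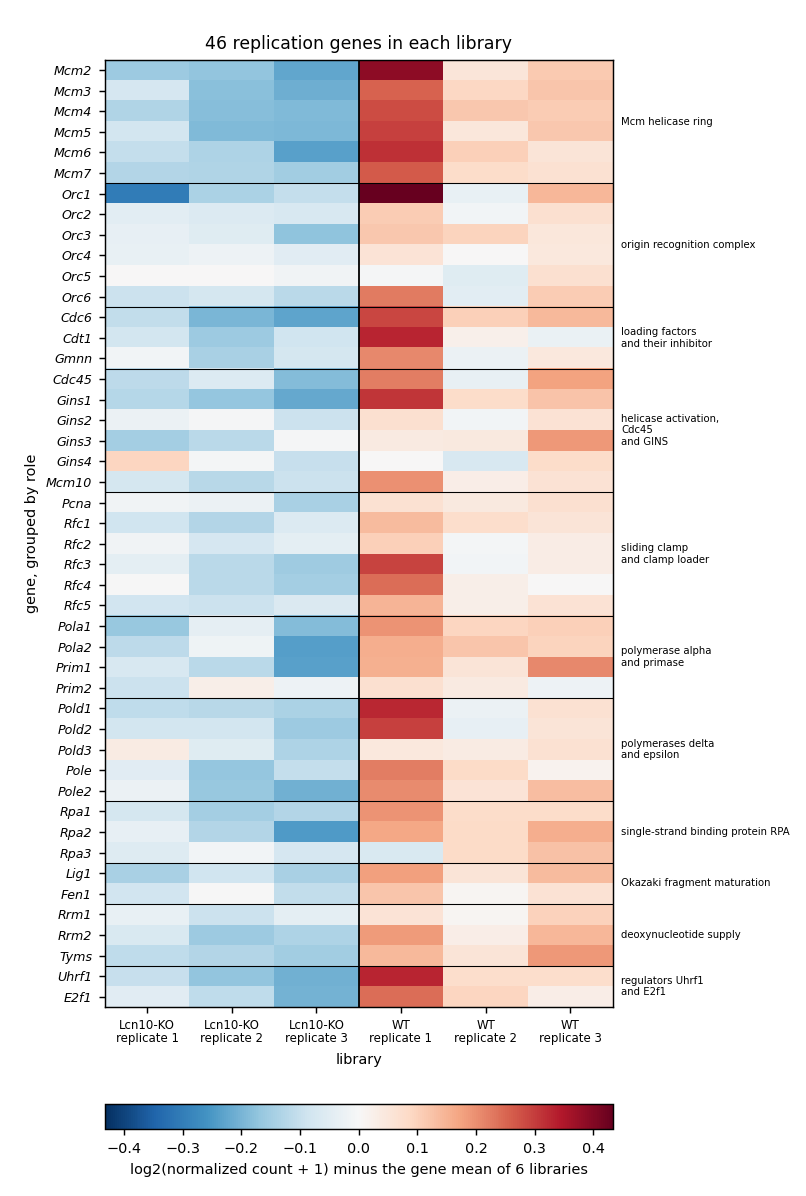
Each row is 1 of the 46 replication genes, grouped by role, and each column 1 library; colour is log2(normalized count + 1) minus the gene's mean over the 6 libraries, blue for lower and red for higher. The Lcn10-KO columns are blue in nearly every row, and the darkest red lies in WT replicate 1, which held the highest value in 37 genes.

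The ring of the replicative helicase changed as a whole. All 6 of its subunits, *Mcm2* to *Mcm7*, fell, to between 77.0% and 82.6% of the WT mean, and in each the groups do not overlap. *Mcm2* (ENSMUSG00000002870.8, chromosome 6, 88883474 to 88898780, minus strand, GRCm38), the subunit that also carries histones at the fork, had 2281, 2260.1 and 2177 in Lcn10-KO, against 3331, 2638 and 2753 in WT. WT replicate 1 was far above the other WT libraries, and all 3 Lcn10-KO libraries lay within a narrow range below them (log2 fold change −0.37 ± 0.078 (SE), limma adjusted p = 0.0221). *Mcm4* (ENSMUSG00000022673.5, chromosome 16, 15623897 to 15637400, minus strand) had 2731, 2632 and 2618 in Lcn10-KO, against 3636, 3246 and 3227 in WT. It fell (log2 fold change −0.34 ± 0.051 (SE), limma adjusted p = 0.00308) and, alone of the 46 genes, kept its call when any 1 library was left out (adjusted p of up to 0.0368). *Mcm6* (ENSMUSG00000026355.11, chromosome 1, 128331590 to 128359664, minus strand), the most abundant ring transcript per length, had 7038, 6891 and 6429 in Lcn10-KO, against 9411, 8118 and 7854 in WT (log2 fold change −0.31 ± 0.066 (SE), limma adjusted p = 0.0183). *Mcm3* had 3445, 3199 and 3132 in Lcn10-KO, against 4321, 3857 and 3941 in WT (log2 fold change −0.31 ± 0.053, adjusted p = 0.00561). *Mcm5* had 3949.8, 3652 and 3646 in Lcn10-KO, against 5116, 4314 and 4523 in WT (log2 fold change −0.31 ± 0.062, adjusted p = 0.0136). *Mcm7* had 2972, 2965 and 2925 in Lcn10-KO, against 3906, 3428 and 3396 in WT (log2 fold change −0.27 ± 0.053, adjusted p = 0.0106). The sum over the ring was 22416, 21599.6 and 20929 in Lcn10-KO, against 29719.6, 25602 and 25694 in WT. Exons of *Mcm7* overlap those of *Ap4m1* and *Cops6* on the opposite strand over 7.25% and 1.45% of their length, and reads from such pairs cannot be told apart without known strand use.

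**Figure D2:**
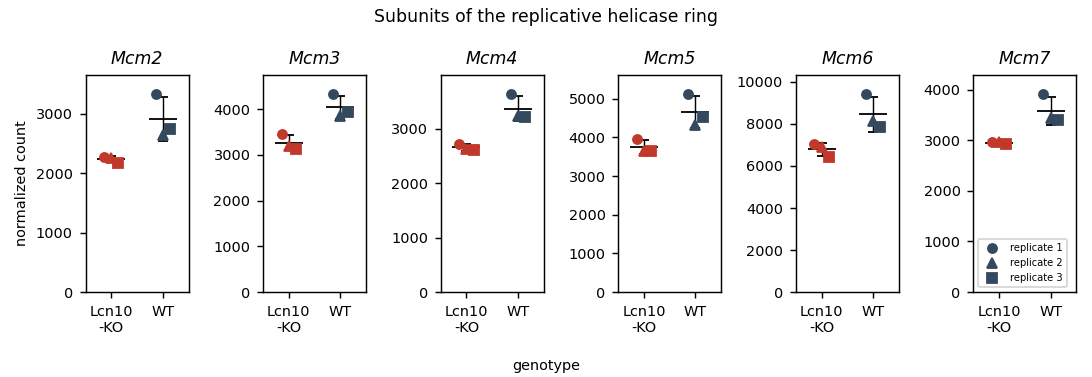
Normalized counts (vertical axes, from 0) of *Mcm2* to *Mcm7* in each library, Lcn10-KO left and WT right, with 1 symbol per replicate and the mean ± SD (n = 3) in black. The 3 Lcn10-KO points lie below the 3 WT points in all 6 panels, with WT replicate 1 on top.

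Promoters of the replication genes were searched for E2F words, whose part in the fall was not tested. RefSeq windows of 300 bases (250 before the transcription start and 50 after it, GRCm38.p6) were available for 38 of the 46 genes. They were searched on both strands for the E2F words TTTCCCGC, TTTGGCGC, TTTCGCGC and TTTGCCGC. At least 1 word occurred in a window of 16 of 38 genes (42.1%), against 2.6% of the 27025 genes in the table, or 16 of 47 windows (34%) against 2.26% of all windows of that length. It occurred in 9 of 18 genes called lower and in 7 of 20 genes that did not pass, a difference that was not tested. Within the ring, leaving aside *Mcm4*, 4 of 5 genes held one, *Mcm3*, *Mcm5*, *Mcm6* and *Mcm7*, and *Mcm2* held none. A match is a description of letters, not evidence of binding. The stretches from 180 to 21 bases before the start are given for *Mcm6* (chr1:128359726-128359885, minus strand), *Mcm5* (chr8:75109329-75109488, plus strand) and *Pola1* (chrX:93632176-93632335, minus strand), genes called lower whose words lie in that stretch and outside annotated exons, written 5′ to 3′ on the strand of the gene with the E2F words in capitals.
Mcm6: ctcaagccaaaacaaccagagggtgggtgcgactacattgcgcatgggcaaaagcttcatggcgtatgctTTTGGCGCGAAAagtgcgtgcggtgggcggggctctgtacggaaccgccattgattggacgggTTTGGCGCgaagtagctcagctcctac
Mcm5: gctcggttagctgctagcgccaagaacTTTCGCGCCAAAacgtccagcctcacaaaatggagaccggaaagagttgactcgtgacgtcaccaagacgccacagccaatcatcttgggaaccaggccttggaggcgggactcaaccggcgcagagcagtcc
Pola1: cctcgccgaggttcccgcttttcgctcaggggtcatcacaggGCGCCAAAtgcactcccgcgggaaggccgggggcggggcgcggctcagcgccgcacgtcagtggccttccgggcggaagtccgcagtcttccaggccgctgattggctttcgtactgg
In *Mcm6* the words begin 110, 106 and 47 bases before the start, and the first pair overlaps as the run TTTGGCGCGAAA. The *Mcm5* pair, 153 and 149 bases before the start, forms TTTCGCGCCAAA, which is the same run read from the other strand. This 12-base run occurs on either strand in 4 of 32851 windows (0.0122%). The single *Pola1* word begins 138 bases before its start.

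The origin recognition complex, which marks origins and recruits the loading factors, had no subunit past the threshold: 0 of 6 by limma, with 4 at an unadjusted p under 0.05, 0 by limma without the trend and a median log2 fold change of −0.14. *Orc1*, the subunit whose level changes over the cell cycle, was the lowest of them, at 138, 156 and 159 in Lcn10-KO, against 231, 167 and 189 in WT. Its groups do not overlap, but WT replicate 1 stood well above the rest and the error is large (log2 fold change −0.36 ± 0.13 (SE), limma adjusted p = 0.089). *Orc3* had 986, 974 and 896 in Lcn10-KO, against 1095, 1081 and 1047 in WT (log2 fold change −0.18 ± 0.054, adjusted p = 0.0582). *Orc6* had 647, 653 and 635 in Lcn10-KO, against 806, 668 and 743 in WT (log2 fold change −0.19 ± 0.069, adjusted p = 0.0962). Without WT replicate 1 the log2 fold changes of *Orc1* and *Orc6* were −0.24 (adjusted p = 0.258) and −0.13 (adjusted p = 0.257). *Orc2* and *Orc4* had log2 fold changes of −0.11 and −0.070, with groups that do not overlap. *Orc5* had 599, 599 and 592 in Lcn10-KO, against 597, 578 and 628 in WT, with groups that overlap (log2 fold change −0.0099 ± 0.059, adjusted p = 0.942). Exons of *Orc2* overlap *Nif3l1*, and those of *Orc6* overlap *Vps35*, on the opposite strand, over 29.8% and 6.93% of their length. *Nif3l1* had a mean value of 331.5, below *Orc2*, and *Vps35* one of 8425, far above *Orc6*, so the values of *Orc6* are uncertain.

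Among the loading factors *Cdc6*, the ATPase that joins ORC to load the ring, fell to 78.1% of WT. It had 569, 534 and 523 in Lcn10-KO, against 748, 658 and 676 in WT (log2 fold change −0.35 ± 0.067 (SE), limma adjusted p = 0.00887), with all 3 Lcn10-KO values below every WT value. *Cdt1*, which brings the ring to ORC, had 1366, 1293 and 1358 in Lcn10-KO, against 1812, 1463 and 1412 in WT and did not pass (log2 fold change −0.21 ± 0.085, adjusted p = 0.148). Its WT value was high in replicate 1 alone, and without that library the log2 fold change was −0.10 (adjusted p = 0.235). *Gmnn*, which codes for geminin, had 1691, 1546 and 1616 in Lcn10-KO, against 1968, 1674 and 1757 in WT (log2 fold change −0.15 ± 0.061, adjusted p = 0.137), and Lcn10-KO replicate 1 lay above WT replicate 2. Without WT replicate 1 its log2 fold change was −0.085.

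Of the factors that activate the helicase, only *Gins1* passed, although *Cdc45* and *Mcm10* were close to the threshold. *Gins1* (Psf1) had 372, 361 and 348 in Lcn10-KO, against 502, 428 and 441 in WT (log2 fold change −0.34 ± 0.077 (SE), limma adjusted p = 0.0187), groups apart. The other GINS subunits ranged from *Gins3* (log2 fold change −0.18 ± 0.078, adjusted p = 0.162) through *Gins2* (log2 fold change −0.081 ± 0.055, adjusted p = 0.387) to *Gins4*, which had 942, 879 and 825 in Lcn10-KO, against 884, 841 and 934 in WT with groups that overlap (log2 fold change −0.0080 ± 0.063, adjusted p = 0.956). A difference between these subunits was not tested. *Cdc45* had 537, 557 and 509 in Lcn10-KO, against 676, 567 and 654 in WT (log2 fold change −0.24 ± 0.074, adjusted p = 0.0573). *Mcm10*, needed to start unwinding, had 850, 824 and 840.5 in Lcn10-KO, against 1026, 912 and 934 in WT (log2 fold change −0.19 ± 0.057, adjusted p = 0.0529) and passed with a filter of 50 (adjusted p = 0.0489). Exons of *Gins2* overlap those of *Gse1* on the opposite strand over 67.3% of their length, so its values are uncertain.

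The clamp PCNA was by far the most abundant of these transcripts per length, and it lay slightly lower in Lcn10-KO without passing. *Pcna* had 21205, 21040.5 and 19436 in Lcn10-KO, against 22420.2, 22077 and 22499 in WT (log2 fold change −0.12 ± 0.043 (SE), limma adjusted p = 0.0943); its groups do not overlap, and it passed once dependence on GC content and length was taken out (adjusted p = 0.0354). Of the clamp loader, which opens PCNA and places it on DNA, 1 of 5 subunits passed, *Rfc1*, the large subunit, at 1911, 1861 and 1949 in Lcn10-KO, against 2234, 2142 and 2111 in WT (log2 fold change −0.18 ± 0.044, adjusted p = 0.026). *Rfc2*, *Rfc3*, *Rfc4* and *Rfc5* had log2 fold changes between −0.21 and −0.086 (adjusted p of 0.0757 to 0.308), each with groups that do not overlap. Without WT replicate 1 those of *Rfc2*, *Rfc3* and *Rfc4* were −0.056, −0.12 and −0.10, moves of over 1.5 times. Exons of *Rfc2*, *Rfc4* and *Rfc5* overlap *Lat2*, *Eif4a2* and *Wsb2* on the opposite strand, over 15.1%, 12.7% and 10.7% of their length. The overlapping genes had mean values of 6037, 4756 and 2493, each above the clamp loader gene it overlaps. The values of *Rfc2*, *Rfc4* and *Rfc5* are therefore uncertain.

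Polymerase alpha with primase, the enzyme that lays the first RNA and DNA of each strand, fell in 3 of its 4 subunits. *Pola1*, the catalytic subunit, whose promoter is shown above, had 1401, 1529 and 1378 in Lcn10-KO, against 1799, 1676 and 1688 in WT (log2 fold change −0.26 ± 0.053 (SE), limma adjusted p = 0.0122). *Pola2* had 751, 802 and 688 in Lcn10-KO, against 907, 883 and 869 in WT (log2 fold change −0.25 ± 0.062, adjusted p = 0.0281). *Prim1*, the catalytic primase subunit, had 677, 655 and 603 in Lcn10-KO, against 790, 738 and 819.7 in WT (log2 fold change −0.28 ± 0.064, adjusted p = 0.0202). All 3 have groups that do not overlap. *Prim2*, the large primase subunit, had 638, 693 and 670.5 in Lcn10-KO, against 714, 699 and 671 in WT and did not pass (log2 fold change −0.058 ± 0.058, adjusted p = 0.576); Lcn10-KO replicate 2 lay among the WT values, and without WT replicate 1 the log2 fold change was −0.038.

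Of the 5 listed subunits of the polymerases that extend the strands, 2 fell, both of polymerase epsilon. The subunits *Pole3*, *Pole4* and *Pold4*, which are outside the list, did not pass, each with groups that overlap. Their log2 fold changes were −0.042, −0.13 and 0.012 (limma adjusted p = 0.808, 0.298 and 0.933). *Pole*, the catalytic subunit of polymerase epsilon on the leading strand, had 1336, 1229 and 1285 in Lcn10-KO, against 1608, 1462 and 1396 in WT (log2 fold change −0.21 ± 0.059 (SE), limma adjusted p = 0.0393). Its partner *Pole2* had 367, 333 and 323 in Lcn10-KO, against 431, 389.7 and 409.8 in WT (log2 fold change −0.27 ± 0.077, adjusted p = 0.0466). Both passed narrowly: *Pole* missed the threshold once dependence on GC content and length was taken out (adjusted p = 0.0578), and *Pole2* did so when every gene above 0 was tested (adjusted p = 0.059). Exons of *Pole2* overlap the protein-coding gene *Gm49384* on the same strand over 8.5% of their length. Of polymerase delta, the enzyme of the lagging strand, 0 of 3 listed subunits passed by limma, with 2 at an unadjusted p under 0.05. By limma without the trend 0 were past the threshold. *Pold1*, its catalytic subunit, had 1215, 1208 and 1194 in Lcn10-KO, against 1646, 1288 and 1373 in WT (log2 fold change −0.24 ± 0.078, adjusted p = 0.0757). *Pold2* and *Pold3* had log2 fold changes of −0.21 ± 0.082 and −0.10 ± 0.052. In *Pold1* and *Pold2* WT replicate 1 stood apart, and without it their log2 fold changes were −0.14 and −0.12, moves of over 1.5 times.

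RPA, which coats single-stranded DNA at the fork, fell in 2 of its 3 subunits. *Rpa1* had 3116, 2964 and 3008 in Lcn10-KO, against 3761, 3469 and 3469 in WT (log2 fold change −0.23 ± 0.046 (SE), limma adjusted p = 0.0107). *Rpa2* had 1167, 1095 and 1010.1 in Lcn10-KO, against 1344, 1266 and 1333 in WT (log2 fold change −0.27 ± 0.059, adjusted p = 0.0155). *Rpa3*, the smallest, had 253, 260.5 and 249.9 in Lcn10-KO, against 251, 279 and 287 in WT (log2 fold change −0.10 ± 0.085, adjusted p = 0.525), and WT replicate 1 lay among the Lcn10-KO values. *Lig1*, the ligase that seals Okazaki fragments, fell to 84.3% of WT, at 2628, 2729 and 2631 in Lcn10-KO, against 3277, 3012 and 3187 in WT (log2 fold change −0.25 ± 0.045 (SE), limma adjusted p = 0.00785). *Fen1*, the nuclease that trims their flaps, had 2184, 2311 and 2147 in Lcn10-KO, against 2510.4, 2327 and 2415 in WT (log2 fold change −0.13 ± 0.047, adjusted p = 0.109). Exons of *Fen1* overlap the antisense gene *Gm10143* over 78.8% of their length, so its values are uncertain.

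Of the 3 genes of deoxynucleotide supply, 2 passed. *Rrm2*, the subunit of ribonucleotide reductase that is made in S phase, fell, at 2923, 2748 and 2795 in Lcn10-KO, against 3476, 3124 and 3385 in WT (log2 fold change −0.24 ± 0.049 (SE), limma adjusted p = 0.0131). *Rrm1*, its more stable partner, had 5449, 5232 and 5415 in Lcn10-KO, against 5818, 5612 and 5978 in WT (log2 fold change −0.11 ± 0.042, adjusted p = 0.104) and did not pass, though its groups do not overlap. *Tyms*, thymidylate synthase, fell to 83.6% of WT, at 769, 759 and 747 in Lcn10-KO, against 914, 863 and 943 in WT (log2 fold change −0.26 ± 0.055, adjusted p = 0.0146). Both regulators of the list passed. *Uhrf1*, which guides maintenance DNA methylation behind the fork, had 2935, 2792 and 2717 in Lcn10-KO, against 3943, 3308 and 3310.2 in WT (log2 fold change −0.32 ± 0.067 (SE), limma adjusted p = 0.0173). *E2f1*, a transcription factor that drives many of the genes above, had 1367, 1309.6 and 1229 in Lcn10-KO, against 1673, 1508 and 1444 in WT (log2 fold change −0.24 ± 0.061 (SE), limma adjusted p = 0.0291). In both the 3 Lcn10-KO libraries lay below all WT libraries, with WT replicate 1 the highest.

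**Figure D3:**
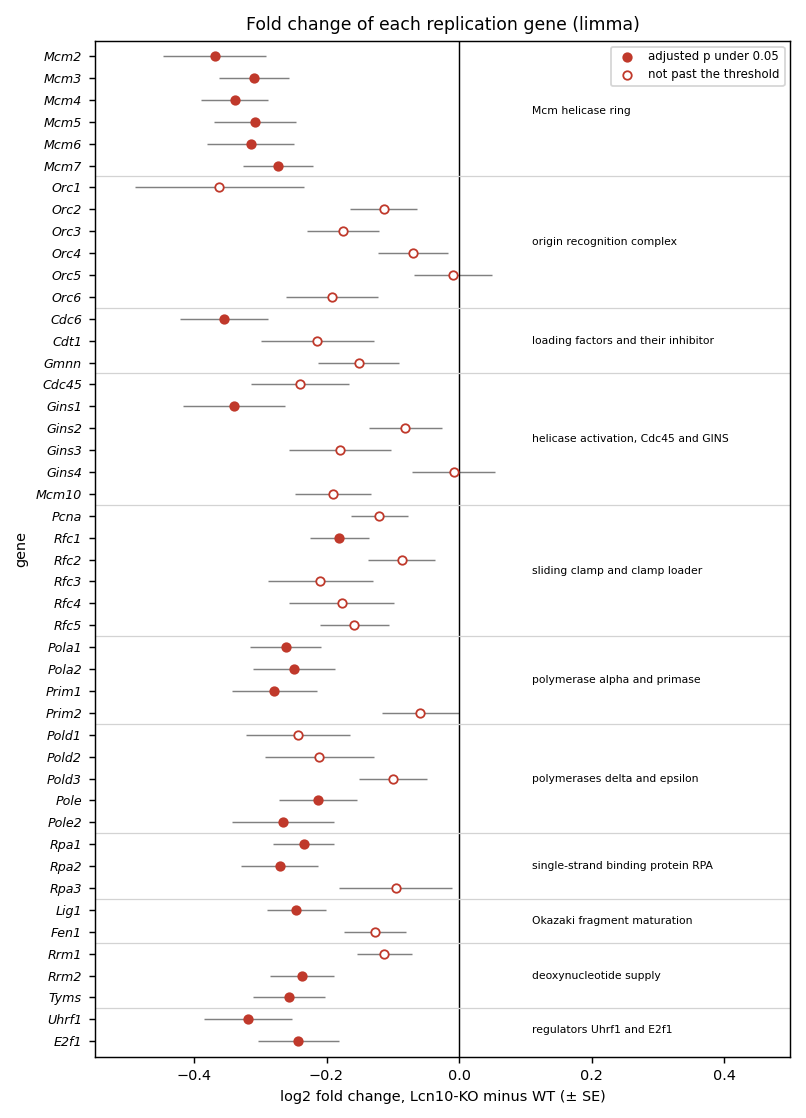
Log2 fold change (Lcn10-KO minus WT, horizontal axis) with its SE for each of the 46 genes, grouped by role; filled points passed limma's adjusted p under 0.05 and open points did not. All points lie left of 0, between −0.37 (*Mcm2*) and −0.0080 (*Gins4*), and all 6 ring subunits are filled while no ORC subunit is; *Orc5* and *Gins4* lay right of 0 under quantile normalization.

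Levels of different genes were compared per kilobase of the principal GENCODE transcript. *Pcna* led at 13544 ± 644 in Lcn10-KO and 14711 ± 148 in WT, in normalized counts per kilobase (mean ± SD, n = 3). Next came *Mcm6*, at 2332 ± 109 in Lcn10-KO and 2908 ± 286 in WT, and then *Gmnn*, at 1435 ± 64.6 in Lcn10-KO and 1597 ± 135 in WT. Although the ring holds 1 copy of each subunit, *Mcm6* transcripts were more abundant per length than those of the other 5, which lay between 664 (*Mcm2*) and 1109 (*Mcm5*) in Lcn10-KO, and between 862 and 1376 for the same genes in WT. In ORC the order ran from *Orc6* (501 in Lcn10-KO and 574 in WT) to *Orc1*, the scarcest of all 46 genes (50.1 ± 3.69 in Lcn10-KO and 64.9 ± 10.8 in WT).

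Other genes of the pathway were taken from lists that leave out the 46. Other replication factors had 17 of 45 genes lower and 0 higher (median log2 fold change −0.16), and other genes of the G1/S programme, some of which both lists hold, had 11 of 24 genes lower and 0 higher (median log2 fold change −0.20). No gene of either list was higher at an unadjusted p under 0.05. Of the 11 G1/S genes called lower, *Dtl*, *Hells*, *Nasp*, *Exo1* and *Clspn* are counted among the other replication factors too. *E2f8* is counted again in the E2F and RB family and *Ccne2* among the cyclins, both given below. *Rif1*, which sets the timing of origins, had 1299, 1283 and 1314 in Lcn10-KO, against 1661, 1582 and 1559 in WT (log2 fold change −0.30 ± 0.046 (SE), limma adjusted p = 0.00353). *Dnmt1*, the maintenance DNA methyltransferase that Uhrf1 recruits, had 5796, 5920 and 5769.6 in Lcn10-KO, against 7499, 6709.6 and 6498 in WT (log2 fold change −0.24 ± 0.052, adjusted p = 0.0148). *Hells*, a chromatin remodeller on both lists, had 1009.6, 951 and 972 in Lcn10-KO, against 1446, 1201 and 1204 in WT (log2 fold change −0.39 ± 0.070, adjusted p = 0.00819). In all 3 the groups do not overlap. *Atad2*, a chromatin reader that E2F drives, and *Dtl*, which marks Cdt1 for destruction in S phase, fell too (log2 fold changes −0.26 ± 0.045 and −0.29 ± 0.063). The list of the replication checkpoint had 6 of 19 genes lower and 0 higher (median log2 fold change −0.17), again with none higher at an unadjusted p under 0.05. Of the 6, *Topbp1*, *Clspn* and *Timeless* are counted among the other replication factors too, and *Clspn* also among the G1/S genes. *Chek1*, its effector kinase, had 379.9, 359 and 384 in Lcn10-KO, against 477, 449 and 497 in WT (log2 fold change −0.34 ± 0.069, adjusted p = 0.0122). The fork protection factor *Timeless* and the repair genes *Brca2* and *Brca1* fell as well (log2 fold changes −0.32 ± 0.069, −0.30 ± 0.063 and −0.23 ± 0.054).

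Deoxynucleotide metabolism had 8 of 23 genes lower and 2 higher (median log2 fold change −0.23). *Impdh2*, the rate-limiting enzyme of guanine nucleotide synthesis, had 1988, 2006 and 1851 in Lcn10-KO, against 2600.2, 2312 and 2270.2 in WT (log2 fold change −0.30 ± 0.057 (SE), limma adjusted p = 0.00984). *Dck*, deoxycytidine kinase, and *Mthfd2*, a mitochondrial enzyme of the folate cycle, fell by the same test (log2 fold changes −0.23 ± 0.046 and −0.23 ± 0.054). The 2 that rose were *Tk2* and *Dguok*, the mitochondrial thymidine and deoxyguanosine kinases, which supply mitochondrial DNA. *Tk2* had 753, 810 and 815 in Lcn10-KO, against 492, 620.3 and 634 in WT (log2 fold change 0.45 ± 0.090 (SE), limma adjusted p = 0.014). *Dguok* had 354, 369.5 and 364 in Lcn10-KO, against 281, 302 and 316 in WT (log2 fold change 0.27 ± 0.076, adjusted p = 0.0396). In both the groups do not overlap, and both calls were lost without Lcn10-KO replicate 2 or 3, that of *Dguok* also without Lcn10-KO replicate 1 or WT replicate 1. In the E2F and RB family 6 of 18 genes were lower and 0 higher (median log2 fold change −0.16), with none higher at an unadjusted p under 0.05. The activator *E2f2* had 708, 727 and 723 in Lcn10-KO, against 925, 857 and 912 in WT (log2 fold change −0.32 ± 0.054, adjusted p = 0.00561). *Mybl2*, the B-Myb of the MuvB complex, had 586, 647 and 608 in Lcn10-KO, against 936, 722 and 768 in WT (log2 fold change −0.39 ± 0.089, adjusted p = 0.0237). *Tfdp1*, the partner of E2F proteins, and the repressor *E2f7* also fell (log2 fold changes −0.23 ± 0.046 and −0.31 ± 0.067). The list of cyclins, kinases and inhibitors of G1 and S phase had 6 of 21 genes lower and 2 higher (median log2 fold change −0.069). That median was −0.16 without Lcn10-KO replicate 1 and −0.16 with a filter of 50. No cyclin or kinase was called higher, the 2 being the inhibitor *Cdkn1c* and *Fbxw7*. *Ccnd1*, cyclin D1, fell the most of the list (log2 fold change −0.64 ± 0.12 (SE), limma adjusted p = 0.034), with groups that do not overlap. *Cdk6*, a kinase of D cyclins, had 2939, 3154 and 2987 in Lcn10-KO, against 4262, 3939 and 3641 in WT (log2 fold change −0.38 ± 0.056, adjusted p = 0.0026). *Ccne2*, cyclin E2, had 1035, 964 and 953 in Lcn10-KO, against 1509, 1199.7 and 1407 in WT (log2 fold change −0.47 ± 0.077, adjusted p = 0.0062). The inhibitors differed: *Cdkn1c* (p57) rose, at 387, 293 and 360.4 in Lcn10-KO, against 237, 277 and 216 in WT (log2 fold change 0.51 ± 0.12, adjusted p = 0.0256), and *Cdkn1a* (p21) fell, at 2388, 2449 and 2274 in Lcn10-KO, against 3259, 2597 and 3000.1 in WT (log2 fold change −0.31 ± 0.074, adjusted p = 0.0319).

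Genes of G2 phase and mitosis were centred near 0. Their list had 2 of 55 genes lower and 3 higher (median log2 fold change 0.033), and 46 of the 55 had overlapping groups. Over all tested genes 5.14% were called lower and 4.7% higher, shares close to those of this list, and 8174 of 12091 had overlapping groups. The difference between this list and the replication genes was not tested as such. *Cenpa*, the centromeric histone, rose, at 1307, 1448 and 1539.5 in Lcn10-KO, against 942, 1041 and 1176 in WT (log2 fold change 0.45 ± 0.085 (SE), limma adjusted p = 0.0145). *Ccnb2*, cyclin B2, rose at 1561, 1548 and 1685 in Lcn10-KO, against 1150.2, 1240.5 and 1468 in WT (log2 fold change 0.32 ± 0.082, adjusted p = 0.0396), and *Pimreg*, a mitotic regulator, rose too (log2 fold change 0.29 ± 0.080, adjusted p = 0.0423). *Rangap1*, which makes Ran hydrolyse its GTP, and *Cbx5*, a heterochromatin protein, fell (log2 fold changes −0.21 ± 0.050 and −0.18 ± 0.046). *Mki67*, the proliferation marker Ki-67, had 13157, 13099 and 14705 in Lcn10-KO, against 14028, 13812 and 14793 in WT and overlapped (log2 fold change −0.059 ± 0.051, adjusted p = 0.504). The mean log2 value of the list, centred on the 6 libraries, was −0.029, 0.017 and 0.089 in Lcn10-KO replicates 1 to 3, against −0.059, −0.080 and 0.061 in WT replicates 1 to 3. WT replicates 1 and 2 were thus low and WT replicate 3 high, whereas WT replicate 1 was the highest library for the replication genes. All 5 calls were lost without Lcn10-KO replicate 2 or 3, and without Lcn10-KO replicate 3 the median of the G2/M list was −0.011, with values up to 0.076 when another library was left out. In the promoter windows, an E2F word occurred in 16 of 38 replication genes and 3 of 48 G2/M genes, and the CHR word TTTGAA in 5 of 38 and 34 of 48 (20.2% of all genes). CCAAT occurred in 24 of 38 and 37 of 48 (41.1% of all genes). All words were searched on both strands, a CCAAT or CHR word was counted also where it overlaps another word, and the share of all 32851 windows was 17.9% for CHR and 37.4% for CCAAT.

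**Figure D4:**
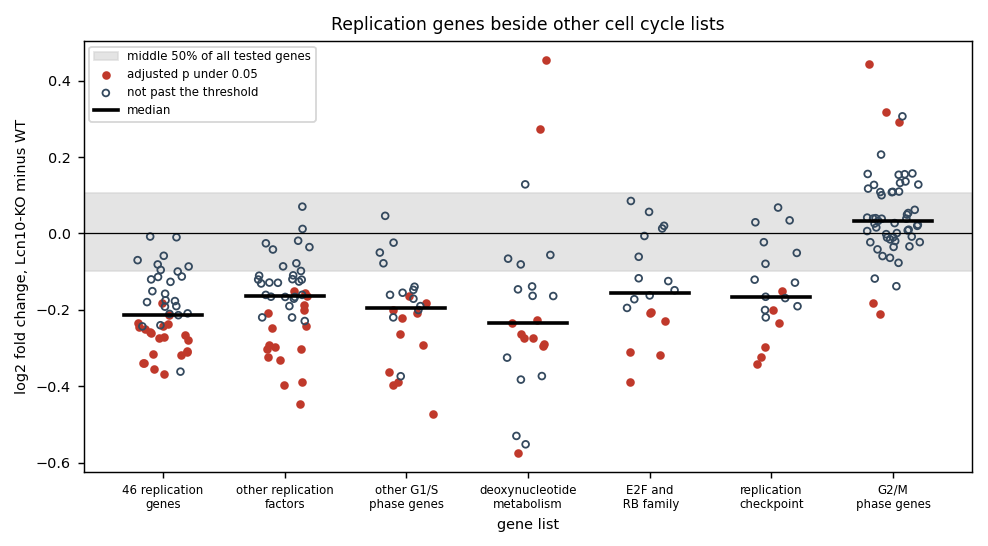
Log2 fold changes (Lcn10-KO minus WT, vertical axis) of the tested genes of each list drawn, 1 point per gene. The bar is the list's median and the grey band the middle 50% of all tested genes (−0.10 to 0.10). Filled points passed limma's adjusted p under 0.05. Cyclins, kinases and inhibitors of G1 and S phase, whose median of −0.069 falls inside the band, are not drawn. The median of the 46 genes (−0.21) lies below the band, and that of the G2/M phase genes (0.033) inside it.

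How many replication genes were called depended on single libraries and on the model of the variance, while the median stayed below 0. Leaving out Lcn10-KO replicate 2 left 5 genes called lower, *Mcm3*, *Mcm4*, *Pola1*, *Pola2* and *Lig1*, when 0.85% of all tested genes were. Leaving out Lcn10-KO replicate 3 left 1, *Mcm4*, when 0.699% of all tested genes were. Limma was also run without the mean-variance trend, which turned off robust estimation too, so the parts of these changes cannot be told apart. No replication gene passed there (0 of 46, with 30 at an unadjusted p under 0.05 and a smallest adjusted p of 0.0901). Of all tested genes 25 did. Without Lcn10-KO replicate 1 the calls of *Mcm2*, *Rfc1*, *Pola1*, *Pola2*, *Pole* and *Pole2* were lost, without WT replicate 1 those of *Pole* and *Pole2*, and without WT replicate 3 those of *Pola2*, *Prim1* and *Pole2*. Leaving out WT replicate 2 lost none and added 8, *Orc1*, *Orc6*, *Gmnn*, *Cdc45*, *Mcm10*, *Rfc3*, *Pold1* and *Pold2*. The 7 further lists shared this pattern. Each held 0 to 2 genes called lower without Lcn10-KO replicate 2 and 0 to 1 without Lcn10-KO replicate 3. None was called lower once limma's trend and robust estimation were dropped. The median log2 fold change of the 46 genes lay between −0.26 and −0.16 over all settings tried, its value nearest 0 being that without WT replicate 1. Dropping the trend, changing the filter or adding a term for the replicate number (the replicate block) cannot move a fold change of these genes. Median-ratio rescaling barely could, so the steady median under those settings was fixed in advance.

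**Figure D5:**
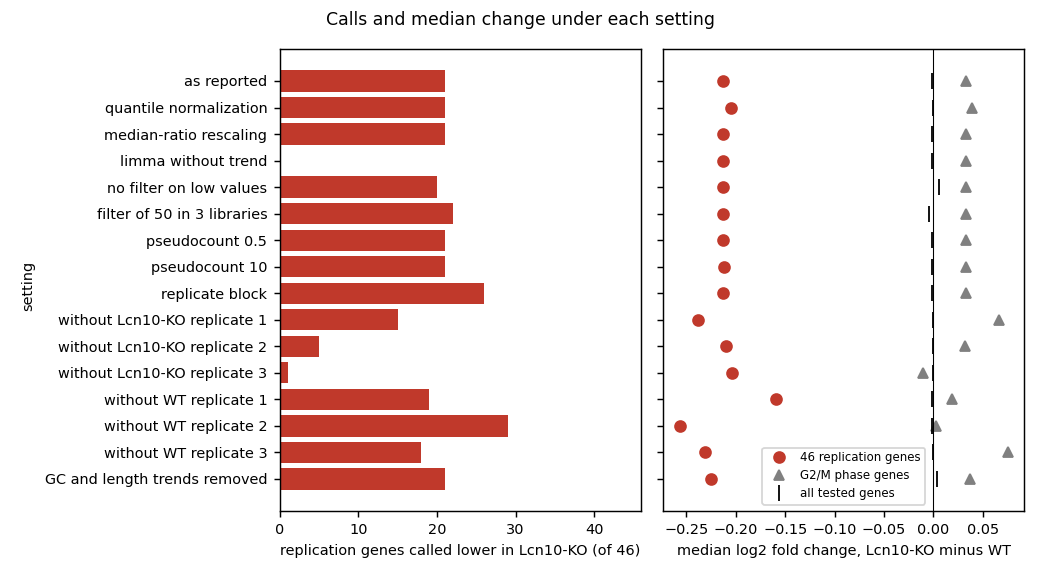
For each setting (vertical axis) the left panel gives how many of the 46 genes were called lower in Lcn10-KO, and the right panel the median log2 fold change of these genes, of the G2/M phase genes and of all tested genes. The bar is missing in limma without trend (0 genes) and shortest without Lcn10-KO replicate 3 (1), while the medians of the 46 genes stay between −0.26 and −0.16. Settings that change only the variance model, the filter or the replicate term cannot move the medians of the 46 genes.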

How the data were processed

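The deposited values are normalized counts, a signal per gene with fractions, none below 0, whose library totals nearly match. The submitters' processing notes name STAR 2.6.1a and Salmon 0.11.2, besides bcl2fastq and DESeq2, on mm10, without saying what each did. How the authors annotated, filtered and used strand is not given in the sources used here. Between 91.9% and 93.6% of low values were whole multiples of the value of a read within 0.1 reads, too few for a count test, so the tests planned for counts were not run.

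Genes reaching 10 in 3 libraries were tested on log2(value + 1) with limma 3.58.1 in R 4.3.3 (genotype as the only term, mean-variance trend, robust estimation) and Benjamini-Hochberg adjustment over all genes; the procedure was tested on simulated data. The setting without the trend also ran without robust estimation. Means are given ± SD and fold changes ± SE. The members and lists were chosen with earlier results of these data known. Named are all members past the threshold, 2 or more per role by p, members that show the range, up to 4 genes per further list by p, and markers past the threshold or near 0. Genes counted in more than 1 list are named too. *Mki67*, *Dguok*, *Pimreg*, *Ccnd1* and *Fbxw7* were added once their values had been seen. Positions, lengths and GC content came from GENCODE M21 (GRCm38, the assembly of mm10), promoters from RefSeq (GRCm38.p6). Figures were drawn with matplotlib 3.10.9.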

Additional observations from a re-analysis of the deposited data

How the results depend on the processing

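The number of genes called among all tested genes was 1190. It was 25 in limma without the trend and robust estimation, and ranged from 175 to 1664 with 1 library left out. The replication genes called lower numbered 21, 0 and 1 to 29 in turn, and the cause was not tested. Under quantile normalization, median-ratio rescaling, other filters, other pseudocounts and a correction for GC content and length (chosen after seeing the data), 20 to 22 were called lower. Median-ratio rescaling gave every library the same factor, 1.00162, so it could barely move a fold change. No setting called a replication gene higher.

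The sign turned for *Orc5* and *Gins4* under quantile normalization (log2 fold changes of 0.0073 and 0.0042), and with 1 library left out they ranged from −0.038 to 0.023 and from −0.057 to 0.039. Of 690 single-gene comparisons with another setting, leave-outs ended 47 calls and added 8, limma without the trend ended 21, and the rest ended 2 and added 7. Of 32 calls of other named genes, leave-outs ended 1 to 27 and limma without the trend 32. Quantile normalization ended that of *Adgre1*, and testing every gene above 0 those of *Dguok* and *Vwf*. The correction for GC content and length ended those of *Dguok*, *Pimreg* and *Cbx5*, and *Mki67* turned to 0.0037 under it. Calls of *Ccnd1*, *Fbxw7* and genes named only as counted in more than 1 list are not among the 32. With the replicate block 26 replication genes and 1607 genes in all were called, adding *Orc3*, *Cdt1*, *Cdc45*, *Mcm10* and *Pold1*. Same-numbered libraries correlated by 0.0382, 0.0734 and 0.014 in their deviations from the group means, short of the 0.1 set for a pairing. Of the 6 libraries 5 correlated best with their own number. Deviations within a group sum to 0, so these matches are not independent and cannot decide on a pairing. The labels do not say what a number stands for, so whether the numbers pair the libraries is not known.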
